A study of Mus musculus with 3 samples.

Results

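The genes described here are the interleukin 6 family and its main signal transducer: the ligands Il6, Lif, Osm and Il11, the receptor chains Il6ra, Lifr, Osmr and Il6st, the transcription factor Stat3 and its feedback inhibitor Socs3. These 10 genes were taken by symbol from the 32285 features of the deposited count matrices, and all 10 had unique molecular identifiers (UMIs, each counted once per captured RNA molecule) in every library. The study sequenced single cells from tibialis anterior muscle of C57/BL6J mice 4 days after injury with barium chloride (BaCl2), a salt that kills muscle fibers and starts regeneration. The 3 groups were young PBS (3 to 4 months of age, vehicle), old PBS (24 to 26 months, vehicle) and old rMETRNL (24 to 26 months, given 3 injections of 0.1 ug recombinant meteorin-like, a secreted protein, into the injured muscle). The comparison of old PBS with young PBS addresses what age does to the injured muscle, and that of old rMETRNL with old PBS what the protein does. Each group was 1 library from 3 pooled samples, so there was no replicate, no test between groups could be made, and every interval below is a 95% interval that covers counting error only. The age and the treatment comparison share the old PBS library, so a value that happened to be high in that library gives a ratio above 1 with age and below 1 with treatment.

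Cytokines of this family bind a private receptor chain and then the shared chain gp130, the product of Il6st, which activates Janus kinases and, through them, STAT3. IL-6 uses IL6RA, in its membrane or soluble form, LIF uses LIFR, mouse oncostatin M uses mainly OSMR, and IL-11 uses a chain of its own. Active STAT3 induces Socs3, whose product binds gp130 and the kinases and shuts the pathway down. In injured muscle IL-6 and LIF are known for acting on satellite cells and myoblasts, and fibro-adipogenic progenitors (FAPs), the mesenchymal cells of muscle that lay down matrix, are a known source of IL-6.

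STAT dimers bind the palindrome TTCNNNGAA, which reads the same on both strands. It was searched in the RefSeq promoters (GRCm38.p6, 250 bases before to 50 after each start) of the 9 genes that had an entry. Of these, 1 gene, Socs3, held it, against 8.30% of all 32851 promoters in the table. The stretch is shown because Socs3 is the gene of the set best known as a direct STAT3 target, with the 9 bases of the motif in capitals. The motif begins 154 bases before the RefSeq start. The printed stretch of 29 bases is chr11:117969502-117969530 on the minus strand (GRCm38.p6), inside an intron of a Socs3 transcript in the GENCODE M21 annotation.

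Socs3 promoter stretch: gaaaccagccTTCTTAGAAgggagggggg

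A match of these letters describes the sequence and says nothing about binding in these cells, and binding was not measured. In GENCODE M21 (GRCm38) the ligand genes Osm (chr11:4236420-4241026) and Lif (chr11:4257557-4272514) lie 16530 bases apart, and the receptor genes Osmr (chr15:6813577-6874969) and Lifr (chr15:7090614-7197489) lie 215644 bases apart, with 0 protein-coding genes between the members of either pair. Stat3 (chr11:100885098-100939540) and Socs3 (chr11:117966079-117970047) are on the same chromosome as Lif and Osm. The remaining genes are Il6 (chr5:30013114-30019981), Il6ra (chr3:89864059-89913196), Il6st (chr13:112464070-112510086) and Il11 (chr7:4772373-4782859).

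Following filtering, 10293 young PBS, 9946 old PBS and 11353 old rMETRNL cells were kept, with 13690 to 15081 UMIs in the median cell. Cells were grouped into 9 classes from marker genes, and the names carry "-like" because they were rebuilt here. Values are given in the order young PBS, old PBS, old rMETRNL throughout. Macrophage/monocyte-like cells numbered 5732, 5432 and 5926 and FAP-like cells 1317, 1215 and 1437. A sub-cluster led by C1qtnf3, Lrrc15 and Thbs4 (229, 91 and 110 cells) was left out of the FAP-like class. A cluster led by Cenpf, Anln and Tnc (110, 92 and 190 cells) was counted in no class. Each had a marker of another class among its leading genes. A level below is given as CPM, the UMIs of a gene per 1000000 UMIs of a class in 1 library, and is compared between classes and libraries but not between genes. The summed level of the 16 FAP markers was 39438, 45605 and 39799 CPM in FAP-like cells and 721 to 939 in macrophage/monocyte-like cells, and that of the 18 macrophage/monocyte markers was 59378 to 63035 in their own class and 777 to 813 in FAP-like cells. Endothelial-like cells differed in depth, with medians of 11000, 3749 and 6873 UMIs per cell, and so did myocyte-like cells, with 27889, 2226 and 3123. The number of cell barcodes shared by a pair of libraries was 58 to 80.

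Il6, the ligand that gives the family its name, was found mainly in stromal and vascular cells. In FAP-like cells its level in young PBS was 216 CPM (95% interval 211 to 221), against 441 (433 to 449) in the old PBS and 332 (326 to 338) in the old rMETRNL library. FAP-like cells held 55.1%, 63.0% and 61.2% of all Il6 UMIs of the 3 libraries, and cells of no described class 16.1%, 8.80% and 13.1%. The highest level, however, was in pericyte/smooth muscle-like cells, the cells that wrap blood vessels, at 762, 1411 and 633 CPM. Endothelial-like cells had 209, 429 and 291 CPM, and in young PBS and old PBS their interval overlapped that of FAP-like cells. Tenocyte-like cells had 81.1, 132.3 and 84.8. In macrophage/monocyte-like cells Il6 was far lower, at 2.61, 6.45 and 3.94 CPM, or 1.21%, 1.46% and 1.19% of the FAP-like level in the same library. As a measure of RNA from other cells, the median FAP marker in macrophage/monocyte-like cells was at 0.452%, 0.473% and 0.485% of its FAP-like level, and the part of such RNA in the macrophage Il6 value was not tested.

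Within FAP-like cells Il6 was unevenly spread. The tenth of cells with the most Il6 held 60.7%, 57.2% and 58.5% of its UMIs, and the highest single cell had 97, 135 and 116. A FAP-like cell with any Il6 UMI had on average 10.3, 15.1 and 13.3 of them. After every cell was thinned to 2000 UMIs, so that depth was equal, an Il6 UMI was still found in 22.8%, 33.6% and 28.5% of FAP-like cells, and without thinning the shares were 54.7%, 62.2% and 60.1%. In MuSC/myoblast-like cells, the class with the lowest thinned Il6 share, it was 0.28%, 0.585% and 1.11%. Both the share of cells and the UMIs per positive cell were therefore highest in old PBS.

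Osm, the ligand of OSMR, had the opposite distribution. Macrophage/monocyte-like cells held 88.8%, 90.7% and 84.8% of its UMIs, at a level of 56.6, 57.0 and 53.7 CPM. These values were close to one another, at 1.01 with age and 0.94 with treatment. Dendritic-like cells had 23.5, 15.7 and 23.6 and T/NK-like cells 12.6, 10.4 and 13.3 CPM, whereas FAP-like cells had 0.67, 0.77 and 0.81. After thinning, 9.87%, 11.3% and 10.2% of macrophage/monocyte-like cells had an Osm UMI, against none of the 101, 253 and 122 myocyte-like cells of that depth. At 3 counts, a count of 0 allows up to 2.97%, 1.19% and 2.46% of those cells to have an Osm UMI, which limits detection and not expression.

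Il11, a ligand known for its action on fibroblasts, was found in mesenchymal cells. In FAP-like cells it was at 34.1, 41.5 and 46.5 CPM and was the only counted gene of the set there that was highest in old rMETRNL. That order did not hold when every library was given the same make-up of FAP-like sub-clusters. The levels were then 36.8, 44.3 and 42.4 CPM, highest in old PBS. Tenocyte-like cells had 39.5, 13 and 37.5 CPM, values that rested on 19, 5 and 19 cells with an Il11 UMI. In macrophage/monocyte-like cells Il11 rested on 23, 43 and 37 UMIs, at 0.729%, 1.11% and 0.782% of the FAP-like level, and only 0, 3 and 5 cells had an Il11 UMI after thinning.

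Lif, known for acting on myoblasts, was the rarest gene of the set with 2315 UMIs in all kept cells. It was at 8.80, 17.0 and 11.4 CPM in FAP-like cells and at 2.55, 1.29 and 1.94 in macrophage/monocyte-like cells. FAP-like cells accounted for 37.8%, 66.0% and 46.5% of its UMIs and macrophage/monocyte-like cells for 29.6%, 18.1% and 23.2%. Cells of no described class held 23.2%, 11.5% and 21.9%, and the part of left-out cells in these shares was not tested. Few cells carried the FAP-like signal: 113, 109 and 136 cells had a Lif UMI, and the 10 highest cells held 41.2%, 45.6% and 34.9% of the UMIs. The share of FAP-like cells with a Lif UMI, 1.44%, 1.83% and 2.41% after thinning, did not follow the order of the levels.

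**Figure D1:**
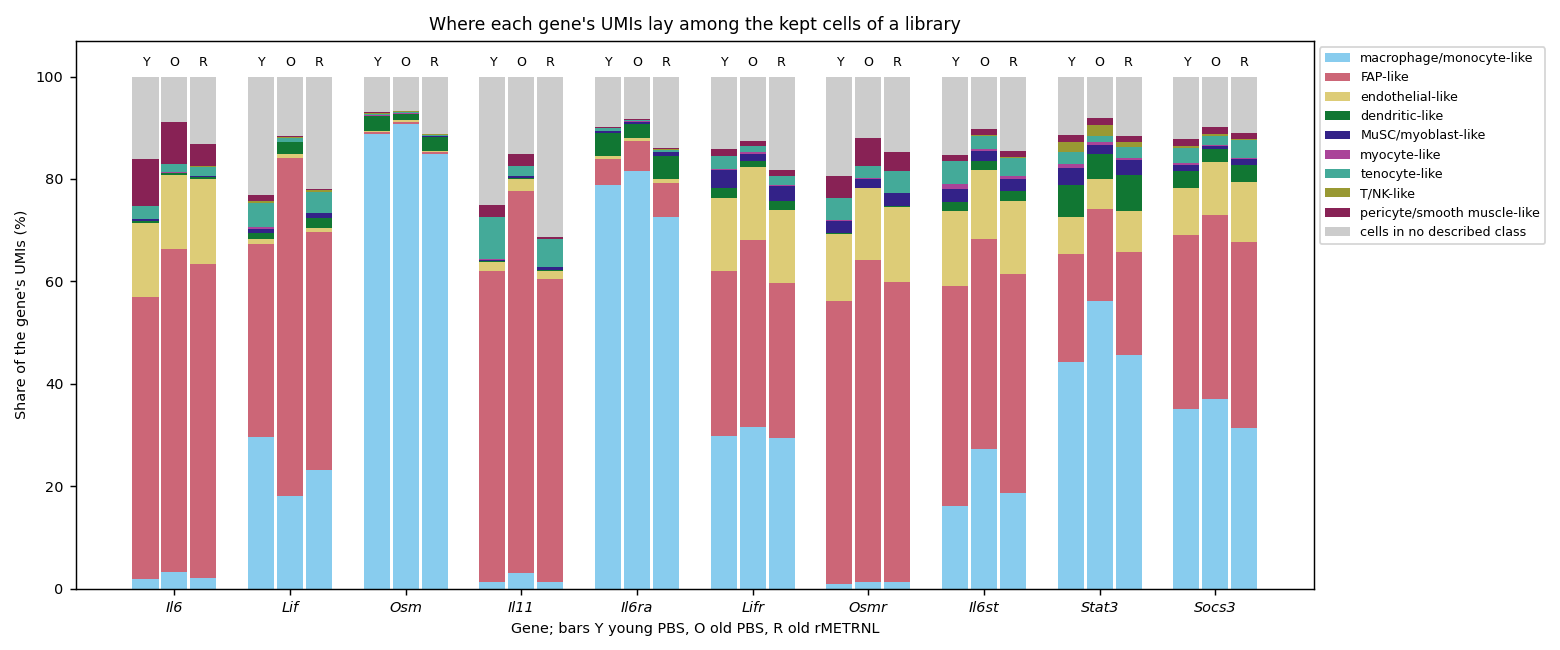
Share (%) of each gene's UMIs that lay in each cell class, by gene and library (Y young PBS, O old PBS, R old rMETRNL), as stacked bars. Osm and Il6ra lay mostly in macrophage/monocyte-like cells (72.6% to 90.7%), and Il6, Il11 and Osmr mostly in FAP-like cells (55.1% to 74.7%).

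The receptor chains divided the classes in a different way. Il6ra, the private chain for IL-6, was a macrophage gene here: macrophage/monocyte-like cells held 78.8%, 81.5% and 72.6% of its UMIs, at 92.5, 92.2 and 79.3 CPM, followed by dendritic-like cells at 66.9, 66.6 and 72.1. FAP-like cells had 16.2, 23.7 and 20.9, and MuSC/myoblast-like cells, the muscle stem cells and their progeny, had 3.91, 6.94 and 6.06. The classes with the most Il6 RNA thus had less Il6ra RNA than macrophage/monocyte-like cells.

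Osmr, the private chain for oncostatin M, was almost the mirror image of its ligand. Its level was 231, 426 and 268 CPM in pericyte/smooth muscle-like, 141, 204 and 162 in FAP-like, 122, 193 and 130 in endothelial-like and 95.4, 94.9 and 101.9 in tenocyte-like cells. Macrophage/monocyte-like cells had 0.82, 1.13 and 1.12, which was 0.585%, 0.555% and 0.693% of the FAP-like level, above the median of 0.452% to 0.485% for FAP markers. Their thinned share of cells with an Osmr UMI, 0.16% to 0.32%, was close to the 0.16% to 0.28% in dendritic-like cells, the class with the lowest share. Osmr is not read as expressed by macrophage/monocyte-like cells, and the part of RNA from other cells in its value was not tested.

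Il6st, which encodes the shared chain gp130, was broader. It was highest in endothelial-like cells at 287, 338 and 247 CPM and next in FAP-like cells at 232, 243 and 229, with 32.1, 45.0 and 34.0 in macrophage/monocyte-like and 37.7, 58.2 and 35.6 in MuSC/myoblast-like cells. Lifr, the chain for LIF, followed the same order of the first 2 classes, with 95.7, 130.5 and 95.2 CPM in endothelial-like and 58.8, 77.9 and 63.0 in FAP-like cells, and stood at 20.1, 18.8 and 20.8 in macrophage/monocyte-like cells. Counted cell by cell without thinning, Il6st and Osmr were found together in 82.6%, 79.6% and 79.9% of FAP-like cells but in 0.49%, 0.92% and 0.86% of macrophage/monocyte-like cells. For Il6st with Il6ra the shares were 24.3%, 30.1% and 29.4% in FAP-like and 26.2%, 34.8% and 27.0% in macrophage/monocyte-like cells.

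Stat3 was found in every class. In old PBS its order was pericyte/smooth muscle-like (420 CPM), T/NK-like (395), dendritic-like (346), endothelial-like (294) and FAP-like cells (213), with macrophage/monocyte-like cells below them (186). The intervals of the first 2 overlapped. Because of its size, the last of these classes nevertheless held 44.3%, 56.2% and 45.6% of Stat3 UMIs. Socs3 was at 402, 734 and 501 CPM in endothelial-like cells, the highest class in both old libraries, at 416, 587 and 482 in FAP-like cells and at 365, 592 and 443 in pericyte/smooth muscle-like cells. It was low in MuSC/myoblast-like cells, at 43.3, 46.8 and 49.9. Levels of the transducer were thus highest in pericyte/smooth muscle-, T/NK- and dendritic-like cells of that library, whereas those of its inhibitor were highest in stromal and vascular classes.

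**Figure D2:**
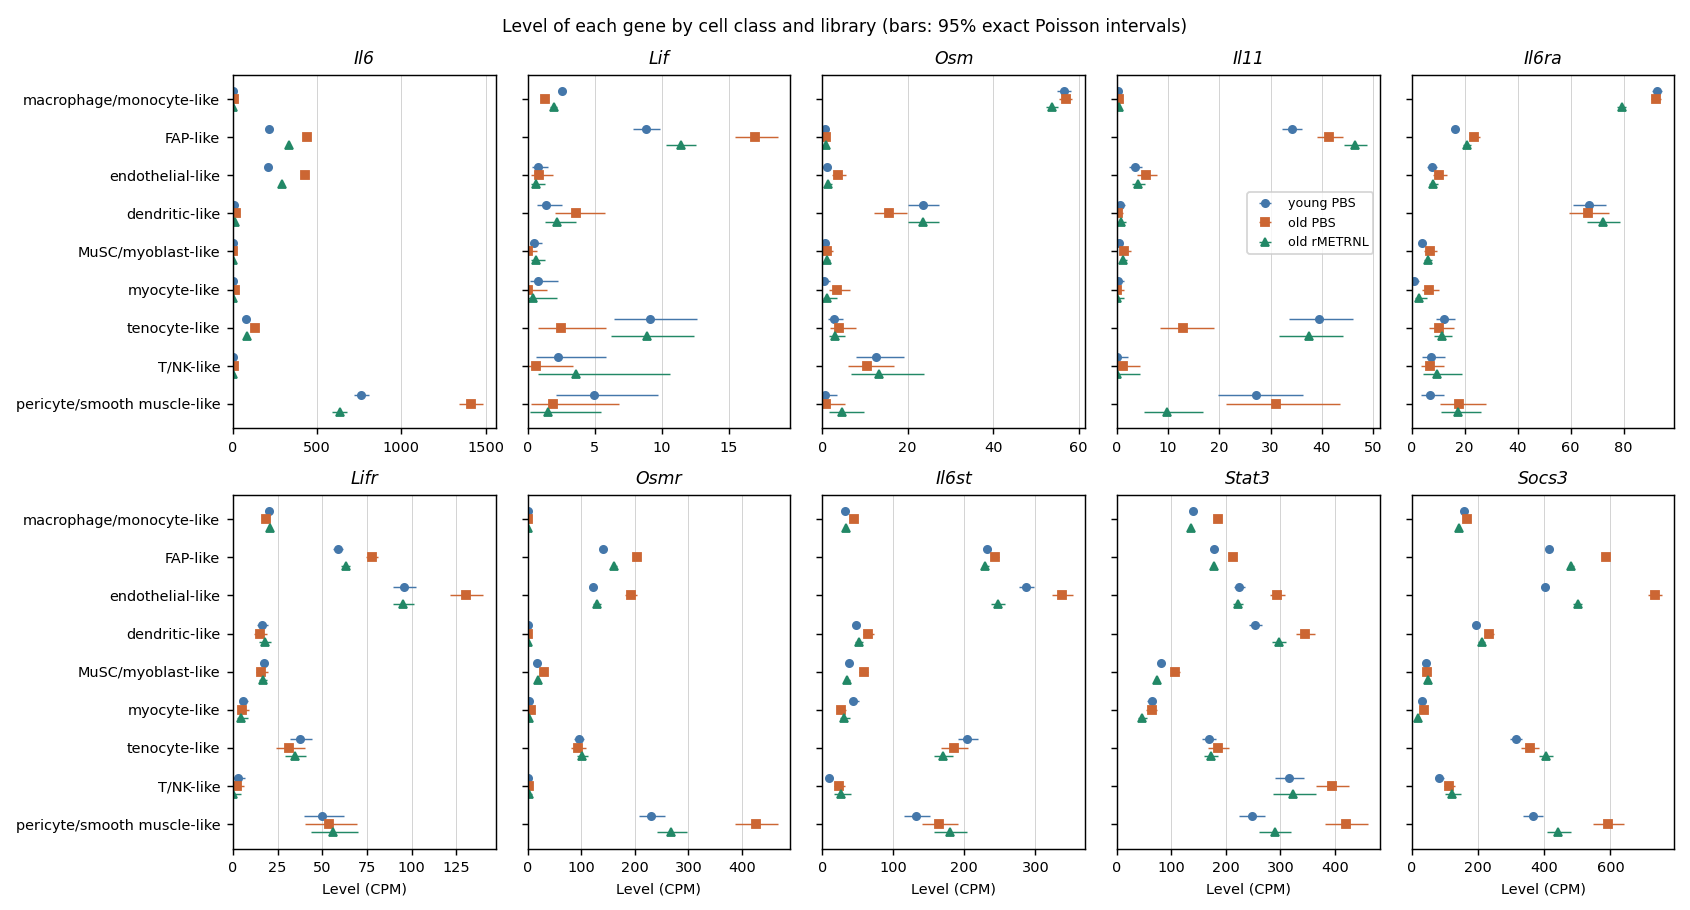
Level of each gene (CPM, linear axis from 0) in 9 cell classes of the 3 libraries, with 95% exact Poisson intervals as bars. Il6 reaches 1411 CPM in pericyte/smooth muscle-like cells of old PBS, and Osm and Osmr are high in classes that do not overlap.

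The age comparison was first made in FAP-like cells. A gene was counted as past the fold when its level differed at least 1.5-fold in either direction and it had 100 or more UMIs in the class. Of the 9 genes counted there, Il6 and Lif were past the fold, both higher in old PBS, and none was lower, against 11.1% of all 12654 counted genes in either direction. Osm, with 71 UMIs in the class, was not counted. Il6 was 2.04 times as high in old PBS as in young PBS (interval 1.98 to 2.10) and Lif 1.93 times (1.66 to 2.24). Neither call held when every library was given the same sub-cluster make-up: the ratios were then 1.49 for Il6 and 1.36 for Lif, both under the fold. Osmr (1.45, 1.39 to 1.51), Il6ra (1.46, 1.3 to 1.64) and Socs3 (1.41, 1.38 to 1.44) lay just inside the fold, followed by Lifr at 1.32, Il11 at 1.22, Stat3 at 1.19 and Il6st at 1.05. The median log2 ratio of the 9 genes was 0.50, beside -0.04 for all genes counted.

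In the treatment comparison none of the 9 genes was past the fold in FAP-like cells, against 6.15% of all genes. The nearest was Lif, whose level in old rMETRNL was 0.67 times that in old PBS (0.58 to 0.77). Il6 was at 0.75 (0.73 to 0.77), Osmr at 0.79, Lifr at 0.81, Socs3 at 0.82, Stat3 at 0.83, Il6ra at 0.88 and Il6st at 0.94, and Il11 was at 1.12 (1.04 to 1.21). When every library was given the same sub-cluster make-up, the Il11 ratio was 0.96. It was above 1 in 2 and below 1 in 4 of the 6 sub-clusters with 50 or more UMIs. The median log2 ratio was -0.29, beside 0.01 for all genes. As a result 8 of the 9 genes had their highest FAP-like level in old PBS, where 35.5% of all genes had theirs. Compared with young PBS, Il6 in old rMETRNL was still 1.54 times as high (1.49 to 1.58) and Stat3 was at 0.99 (0.96 to 1.03). This Il6 ratio was 1.33 at the same sub-cluster make-up, and it stayed past the fold in 3 of 8 alternative runs.

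Endothelial-like cells also had Il6 past the fold with age. In the age comparison 4 of 8 genes were past the fold (15.9% of all genes), all higher in old PBS: Il6 at 2.05 (1.94 to 2.18), Socs3 at 1.83 (1.75 to 1.91), Osmr at 1.59 (1.46 to 1.72) and Il11 at 1.59, whose interval of 0.95 to 2.64 includes 1. The treatment ratios were 0.68 for Il6, 0.68 for Socs3 and 0.67 for Osmr, and 0 of 8 genes were past the fold (11.5% of all genes). All 8 genes were highest in old PBS, as were 34.2% of all genes. The ratios of several of these genes depend on how cells are weighted. As a mean of the levels of single cells, in place of the summed UMIs, Il6 was at 1.32 with age and 1.07 with treatment, Il6st at 0.79 with age and Il11 at 1.42 with treatment, so that these 3 genes were then no longer highest in old PBS. The class was shallowest in old PBS, as given above. Its make-up differed too: a cluster led by Gpihbp1, Cldn5 and Cdh5, with 4299 UMIs in the median cell, had 424, 705 and 715 cells, and one led by Selp, Sele and Ackr1, with 11728, had 159, 119 and 169. Of the 13 marker lists of other cells, 7 had their highest summed level in old PBS. It was 452, 797 and 645 CPM for pericyte/smooth muscle markers, 1572, 2937 and 2646 for macrophage/monocyte markers, 32.7, 202 and 61.8 for myocyte markers and 24.7, 181 and 69.8 for erythroid markers. The FAP markers, at 1823, 1745 and 1715, and the MuSC/myoblast markers, at 579, 529 and 447, were highest in young PBS, and the dendritic, B, tenocyte and glial markers were not highest in old PBS either. The part of depth, make-up and RNA of other cells in these ratios was not tested.

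Pericyte/smooth muscle-like cells, with 110 to 137 cells per library, had 4 of 6 genes past the fold with age (23.2% of all genes), namely Il6 at 1.85 (1.72 to 2), Osmr at 1.84 (1.6 to 2.12), Stat3 at 1.70 (1.48 to 1.95) and Socs3 at 1.62 (1.45 to 1.82). In the same class 12 of 26 genes that respond to tissue digestion were past the fold and higher in old PBS. Myocyte markers summed to 58.5, 424 and 73.1 CPM, whereas FAP markers (2896, 2079 and 2412) and endothelial markers (4651, 3792 and 4403) were lowest in old PBS, and the median cell had 9307.5, 5754 and 7257 UMIs. The part of digestion, RNA of other cells and depth in these ratios was not tested. With treatment 2 of 6 were past the fold (12.9% of all genes): Il6 at 0.45 (0.41 to 0.49) and Osmr at 0.63 (0.55 to 0.73), both lower in old rMETRNL. Here Il6 in old rMETRNL was below the young PBS level, at 0.83 times (0.76 to 0.91), but under a stricter cell filter this ratio was 1.26.

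In macrophage/monocyte-like cells the picture was mixed. In the age comparison 3 of 10 genes were past the fold (10.7% of all 13043 genes): Il6 (2.47, 2.13 to 2.88) and Il11 (1.84, 1.09 to 3.21) were higher in old PBS and Lif (0.51, 0.40 to 0.63) was lower, all at the low levels given above. Of the genes that macrophage/monocyte-like cells had in quantity, Il6ra at 1 (0.97 to 1.03), Osm at 1.01 (0.97 to 1.05) and Socs3 at 1.06 (1.03 to 1.08) were nearly level, whereas Stat3 at 1.33 (1.3 to 1.36) and Il6st at 1.40 (1.34 to 1.47) were higher in old PBS without passing the fold. With treatment only Il6 was past the fold, at 0.61 (0.54 to 0.70), against 7% of all genes. Stat3 was at 0.73 (0.72 to 0.75) and Il6st at 0.76 (0.72 to 0.79), so that in old rMETRNL they stood at 0.97 and 1.06 times their young PBS levels. Lif was at 1.5 (1.19 to 1.9), just under the fold.

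**Figure D3:**
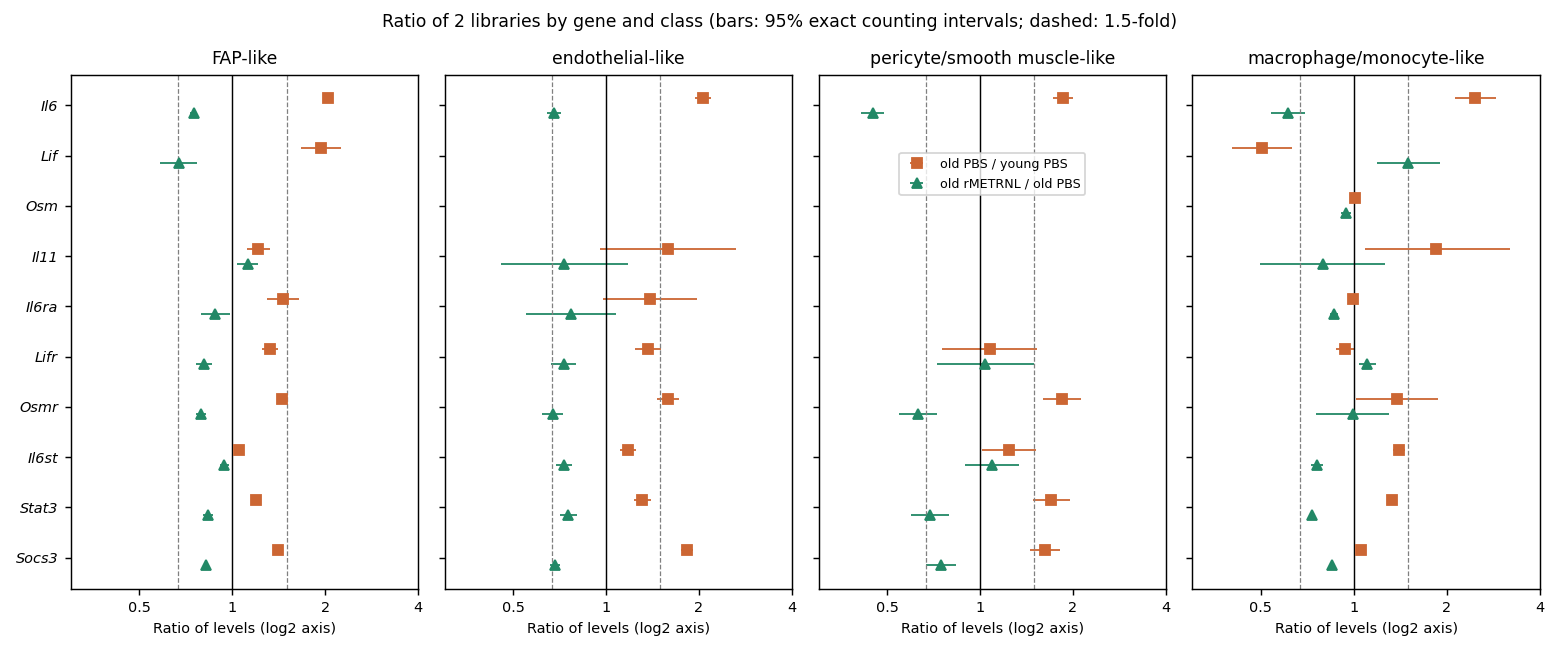
Ratio of levels (log2 axis) of each counted gene for old PBS over young PBS (squares) and old rMETRNL over old PBS (triangles) in 4 classes, with 95% counting intervals as bars and dashed lines at 1.5-fold. Il6 lies at 1.85 to 2.47 with age and 0.45 to 0.75 with treatment, and both ratios share the old PBS library.

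Smaller classes held further values past the fold. Il11 in tenocyte-like cells was at 0.33 with age (0.21 to 0.50) and 2.89 with treatment (1.90 to 4.57), from 160, 26 and 147 UMIs. The 10 highest cells held 94.4% of these UMIs in young PBS and 93.9% in old rMETRNL, and the counting intervals do not cover that spread between cells. Under a looser cell filter the ratio of old rMETRNL to young PBS was 0.34 in place of 0.95. The other gene past the fold in both comparisons was Il6, at 1.63 and 0.64, so 2 of 8 genes were past it in each (11.9% and 8.11% of all genes). When doublet calls were kept, the Il11 ratios with age and treatment were 0.15 and 5.77, and under a stricter cell filter the Il6 ratios were 0.85 and 0.98. As a mean of single-cell levels the Il6 age ratio was 2.84. Its 10 highest cells held 59.5%, 80.8% and 45.8% of the Il6 UMIs, and in old PBS 1 cell held 77 of 265, so these Il6 values rest on few cells. In MuSC/myoblast-like cells Osmr (1.82 with age, 0.65 with treatment) and Il6st (1.54 and 0.61) were higher in old PBS than in both other libraries, and Il6ra was at 1.77 with age, from 48, 36 and 75 UMIs. The Il6st age ratio stayed past the fold in 3 of 6 alternative runs, the lowest value being 1.42. The shares of all genes past the fold in that class were 7.2% with age and 6.12% with treatment. In dendritic-like cells Il6 was at 2.70 with age (11.3% of all genes past the fold) and 0.59 with treatment (8.81%), from 48, 81 and 77 UMIs, and Osm, at 0.67 with age and 1.51 with treatment, was past the fold with treatment only. In myocyte-like cells, where 48.7% of all genes were past the fold with age and 38.3% with treatment, Il6st was at 0.61 with age and Socs3 at 0.49 with treatment, and neither is read as a property of these genes. T/NK-like cells had 100 UMIs or more of Stat3 and Socs3 only, and neither was past the fold with age (9.57% of all genes) or treatment (11.1%).

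The FAP-like class is itself a mixture, and its sub-clusters were not equally frequent in the libraries. Over the 10 sub-clusters with at least 20 cells in each library, the Il6 age ratio was above 1 in 9 (0.88 to 2.56), and when every library was given the same sub-cluster make-up, that of the 3 libraries together, the ratio was 1.49 instead of 2.08 for their summed UMIs. Sub-cluster 9 (Hmcn2, Crispld2, Hsd11b1), with 25, 154 and 66 cells, had Socs3 at 1011, 1031 and 982 CPM, above the level of the whole class, and thus entered the libraries in unequal number. Il6 was high in sub-cluster 3 (Chl1, Trf, Sfrp1) at 594, 722 and 701 CPM and in sub-cluster 1 (Notch3, Gucy1a1, Mest) at 234, 599 and 421, and low in sub-cluster 0 (Swt1, Trmt1l, Ddit4l) at 27.7, 31.9 and 34.1. Notch3 is also on the marker list of pericyte/smooth muscle-like cells, and at a finer clustering a group of 86, 24 and 38 cells led by Heyl, Gucy1a1 and Mest was left out of the class. Without sub-cluster 1, an alternative chosen after seeing the data, the Il6 ratio of the class was 1.92 with age and 0.78 with treatment, the Il6ra age ratio was 1.54, past the fold, in place of 1.46, and the Lif treatment ratio of 0.67 was past it too. With treatment the Il6 ratio was above 1 in 4 sub-clusters and below 1 in 6, and 0.89 at this common make-up.

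Osmr was more uniform: its age ratio was above 1 in 9 of 10 sub-clusters and its treatment ratio below 1 in all 10 (0.78 to 0.94), with an age ratio of 1.26 at the common make-up. For Socs3 the age ratio was above 1 in 7 of 10 and 1.22 at the common make-up, where the ratio of Il6ra was 1.03 in place of 1.44. Lif had 50 or more UMIs over the 2 libraries in only 3 sub-clusters, where its age ratios were 0.77, 1.88 and 3.96, and its ratio at the common make-up was 1.36. Sub-cluster 13 (Sfrp5, Cldn1, Itgb4), with 21, 26 and 11 cells and leading genes that are not FAP markers, had Lif at 37.4, 149.9 and 0 CPM, and without it the Lif age ratio of the class was 1.86. Il11 was highest in sub-cluster 6 (Slc16a3, Il11, Acta2) at 119, 137 and 128 CPM, a sub-cluster that Il11 itself leads although the 10 genes were kept out of the clustering.

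**Figure D4:**
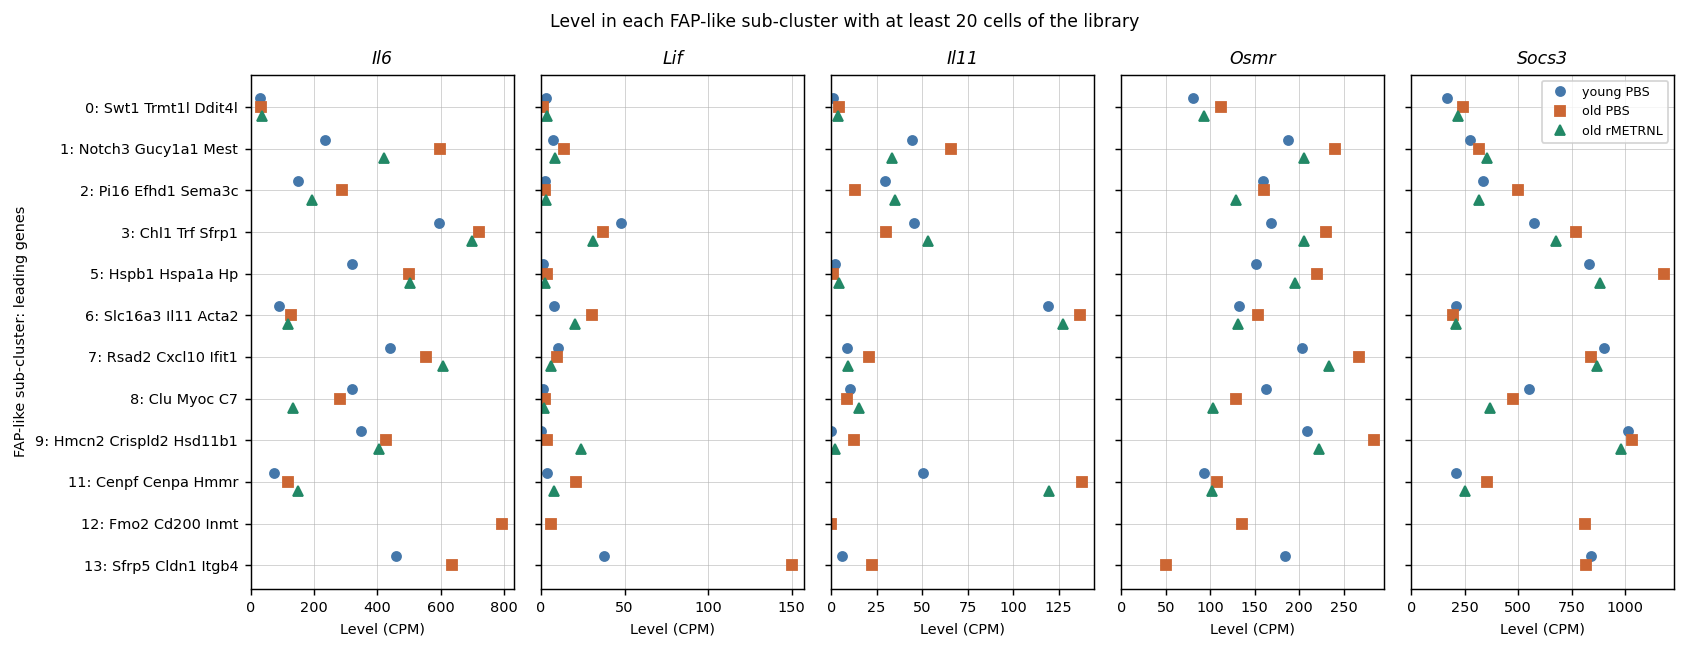
Level (CPM) of Il6, Lif, Il11, Osmr and Socs3 in each FAP-like sub-cluster with at least 20 cells of the library and labelled by number and leading genes, with 1 marker shape per library. Il6 spans 27.7 to 722 CPM between sub-clusters 0 and 3, more than the 2.04-fold age ratio of the class.

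For Stat3 and Il6st in macrophage/monocyte-like cells the direction was shared by most sub-clusters, whereas with age Il6ra, Socs3 and Osm were divided. Over 14 sub-clusters the age ratio of Stat3 was above 1 in 13 and 1.23 at the common make-up, and that of Il6st was above 1 in 13 and 1.32. The treatment ratio was below 1 in 13 of 14 for Stat3, Il6st and Il6ra and in 11 of 14 for Osm and Socs3. The age ratios of Il6ra and Socs3 were above 1 in 8 and below 1 in 6 sub-clusters, and those of Osm above 1 in 9 and below 1 in 5. Osm was highest in sub-cluster 0 (Hbegf, Ednrb, Ccl7) at 109, 127 and 120 CPM, where Stat3 was at 242, 336 and 243, and low in sub-cluster 6 (Rnf128, Mmp12, Ctsl) at 21.5, 25.0 and 24.9. A cluster led by Cd163, Ccl8 and F13a1, which was left without a name and counted in no class (365, 365 and 694 cells), had Il6ra at 147, 161 and 133, Lifr at 74.8, 98.3 and 87.9 and Stat3 at 165, 259 and 162 CPM.

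The rest of the pathway was read from lists of genes. Among genes known as STAT3 targets, 5 of 22 counted were past the fold with age in FAP-like cells, all higher in old PBS (11.1% of all genes), and their median log2 ratio was 0.35 beside -0.04 for all genes. The largest ratios were those of Saa3, an acute-phase protein (10.2, 21.7 and 25.6 CPM, age ratio 2.12), Serpina3n, a protease inhibitor (102.8, 201.4 and 167.0, 1.96), and Fgl2, a secreted fibrinogen-like protein (171, 332 and 255, 1.94). The targets were not recomputed at the common sub-cluster make-up, and Serpina3n is a leading gene of FAP-like sub-cluster 3, with 101, 206 and 162 cells. With treatment Lcn2, which encodes lipocalin 2, was higher (9.18, 10.3 and 16.8, ratio 1.64) and Il1rn, which encodes the interleukin 1 receptor antagonist, lower (4.24, 7.44 and 4.07, 0.55), so that these 2 of 22 were past the fold in opposite directions (6.15% of all genes). Il1rn is also among the 5 with age. Its FAP-like level was 1.28%, 1.48% and 1.17% of the macrophage/monocyte-like level, beside 1.29%, 1.34% and 1.31% for the summed macrophage/monocyte markers, and is not read as expression by FAP-like cells. In pericyte/smooth muscle-like cells 11 of 18 counted targets were past the fold and higher with age (23.2% of all genes in either direction), with a median log2 ratio of 0.64 beside -0.05 for all genes, and 5 were lower with treatment (12.9%), with a median of -0.30 beside 0.07. Fos and Junb, among these 11, are also digestion genes. In endothelial-like cells 5 of 21 were higher with age (15.9%) and with treatment 4 were lower and 1 higher (11.5%), the medians being 0.33 and -0.43 beside -0.06 and 0.06.

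Of 19 Janus kinases, STATs, adaptors and inhibitors counted in FAP-like cells, Socs1 (79.4, 119.2 and 90.4 CPM, 1.5) was the only one past the fold and higher with age, and 0 were past the fold with treatment. Of 7 other ligands and receptors of the family counted there, Ctf1, which encodes cardiotrophin 1, was lower with age (3.39, 1.58 and 1.70, 0.47) and 0 were past the fold with treatment. In this class 11.1% of all genes were past the fold with age and 6.15% with treatment, and both lists are small.

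In macrophage/monocyte-like cells 3 of 22 STAT3 targets were higher with age, namely Saa3 (2.23, 8.35 and 5.31 CPM, 3.74), Serpina3n (0.29, 0.61 and 0.53, 2.08) and Il1rn (331, 501 and 347, 1.52), and 0 were lower, a share near the 10.7% of all genes past the fold in that comparison. The Serpina3n level was 0.284%, 0.302% and 0.318% of that in FAP-like cells, below the median of 0.452% to 0.485% for FAP markers. It is not read as expression by macrophage/monocyte-like cells, and the part of RNA from other cells in it was not tested. With treatment 1 of 22, Saa3, was lower at 0.64, beside 7% of all genes past the fold. Of the 19 kinases, STATs, adaptors and inhibitors, none was past the fold and higher with age, and with treatment Gab1, an adaptor, was lower at 0.65. Of 6 other family genes, Il27, which encodes a subunit of interleukin 27, was at 2.29, 1.02 and 2.08 CPM, that is 0.45 with age and 2.02 with treatment, and Clcf1 (0.61) and Cntf (0.66), both ligands, were lower with treatment. These lists are small, and with treatment 1 of the 19 and 3 of the 6 genes were past the fold, beside the same 7% of all genes.

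Genes that respond to tissue digestion were counted as well. Of 26 such genes in FAP-like cells 3 were past the fold with age, near the 11.1% of all genes. Klf4 was past the fold and higher in old PBS (439, 745 and 568 CPM, 1.70), and the heat-shock genes Hspa1a (1075, 667 and 1205, 0.62) and Hspb1 (622, 414 and 756, 0.67) were lower and then higher with treatment (1.81 and 1.82). Of the same 26 genes 8 were lower with age in macrophage/monocyte-like cells (10.7% of all genes past the fold), among them Hspa1a (1276, 541 and 1198, 0.42), and with treatment 5 were higher and Fosb lower at 0.66 (7% of all genes). In endothelial-like cells 5 of 26 were higher with age (15.9% of all genes) and 3 lower with treatment (11.5%), shares near those of all genes. In pericyte/smooth muscle-like cells 12 of 26 were higher with age, among them Egr1, Fosb, Fos and Junb, and none lower, with a median log2 ratio of 0.57 beside -0.05 for all genes, and 0 were past the fold with treatment. Fos and Junb stand on both this list and the STAT3 target list. The part of digestion in the values of Il6, Socs3 and the other genes was not tested.

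Finally, for each gene the 3 genes whose log2 levels were most alike over 27 points (9 classes in 3 libraries) were found. The points share libraries and depth, so the correlations describe a pattern over classes. Osmr was closest to Rhoj (Pearson r = 0.99), Tns2 and Dlc1, and Osm to Lilr4b (r = 0.98), Lilrb4a and Itgam, an integrin chain of myeloid cells. Lifr was closest to Nav1 (r = 0.97), App and Trib1, Stat3 to Nr4a2 (r = 0.97), Elovl5 and Pik3r1, and Socs3 to Zfp36l1 (r = 0.97), Irgm1 and Fosb. Il6 was closest to Sparcl1 (r = 0.96), Plscr2 and Trpm3, Il6st to Cebpd (r = 0.96), Cpne8 and Prnp, Il11 to Oat (r = 0.96), Pcsk5 and Nfatc4, Il6ra to Prkcd (r = 0.94), Tmem219 and Slc29a3, and Lif, the rarest, to Mia3 (r = 0.84), Mapk9 and Pdlim2. These neighbours were found with 1 CPM added to each level. With 10 CPM added, all 3 were replaced for Il11 and for Lif. For Il6, Il6ra and Lifr 2 of 3 were replaced and for Osm 1 of 3, whereas those of Osmr, Stat3, Socs3 and Il6st stayed the same 3 genes. Within the set, Il6 followed Osmr (r = 0.90) and Il6st (r = 0.89), Osm followed Il6ra (r = 0.75), and Osm and Osmr had opposite patterns (r = -0.71).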

How the data were processed

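Raw UMI counts per gene and cell, as the authors deposited them, were used for 3 droplet libraries of pooled triplicate samples. Per the labels, reads were aligned to mm10 with Cell Ranger, for which versions 3.1.0 and 5.0.0 are both named. Barcodes needed 500 or more detected genes and a mitochondrial share below 10%. The automatic doublet threshold of Scrublet called 0 cells, so the highest scores were removed at 0.8% per 1000 barcodes. Cells were clustered with scanpy 1.11.5 (2000 variable genes without the 10 genes described, 30 principal components, 20 neighbours, Leiden resolution 0.8, no integration) and named from marker lists. A cluster without a marker among its leading genes needed 75% of its markers detected, a rule added after the clusters were seen. Levels carry exact Poisson intervals, ratios of 2 libraries exact conditional intervals, and shares Clopper-Pearson intervals in the tables. The total per library was 179295668 to 228966697 UMIs. Genes of a list were named when past 1.5-fold with at least 100 UMIs, up to 3 in each direction, and likeness was Pearson's r of log2(level + 1). The genes and lists were chosen with earlier results of these data known. The ratio computation was tested on simulated data. One result from a gene list is not reported here.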

Additional observations from a re-analysis of the deposited data

Results flagged for a closer look

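In 3 genes the age ratio was past 1.5-fold in opposite directions in 2 cell classes. With 1 library per group the difference between the classes was not tested. Lif was at 1.93 in FAP-like and 0.51 in macrophage/monocyte-like cells. Il11 was at 1.84 in macrophage/monocyte-like cells, from 103 UMIs over the 3 libraries, and at 0.33 in tenocyte-like cells. The macrophage/monocyte-like level was 0.729%, 1.11% and 0.782% of the FAP-like level in young PBS, old PBS and old rMETRNL, beside 0.452% to 0.485% for the median FAP marker, and the part of RNA from other cells in it was not tested; the tenocyte-like value rested on 19, 5 and 19 cells with a UMI. Il6st was at 1.54 in MuSC/myoblast-like and 0.61 in myocyte-like cells, a class in which 48.7% of all genes were past the fold. These ratios stayed past the fold in 3 of 6 and 4 of 8 alternative runs.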

How the results depend on the processing

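No paired analysis was possible because each group has 1 library. Of 36 ratios past the fold, 32 kept their side of 1 in each alternative run, and 15 stayed past the fold in all of these runs. There were 8 such runs, or 6 for the 6 ratios of MuSC/myoblast-like cells, where the stricter filter and resolution 0.4 gave no value. The common sub-cluster make-up was not among these runs, and the FAP-like age calls of Il6 and Lif did not hold there. The reversed ratios were in small classes: under the stricter cell filter Il6 with age in tenocyte-like cells was 0.85, and in myocyte-like cells Il6st with age was 1.05 and Socs3 in old rMETRNL over young PBS 1.29; at resolution 0.4 these myocyte ratios were 1.22 and 1.09 and Socs3 with treatment 1.03, and as a mean of single-cell levels Socs3 in old rMETRNL over young PBS was again 1.09. The causes were not tested. A fold of 2 left 1 gene of the set past it with age in FAP-like cells (2.97% of all genes) and 1 in macrophage/monocyte-like cells (2.96%). With treatment it left 0 in the latter (1.52%). As a mean of single-cell levels 5 macrophage/monocyte genes were past the fold with age in place of 3, where 12.7% of all genes were past it in place of 10.8%, both without the 0.5 UMI added to each gene for the 10.7% of the report. With treatment, Lif in FAP-like cells made the count 1 in place of 0 under the stricter filter, the looser filter, doublet calls kept, resolution 1.6, ratios centred on the median gene and, chosen after seeing the data, sub-cluster 1 left out. Under these settings 5.76% to 6.75% of all genes were past the fold. In macrophage/monocyte-like cells Lif made it 2 in place of 1 under both filters, doublet calls kept, resolutions 0.4 and 1.6, the 10 genes allowed into the clustering, and the left-out clusters counted, an alternative chosen after seeing the data. There 7.13% to 7.73% of all genes were past the fold. Over the alternatives the FAP-like age ratio was 1.77 to 2.14 for Il6 and 1.61 to 2.44 for Lif. These ranges leave out the common sub-cluster make-up, where the ratios were 1.49 and 1.36, both under the fold. The few UMIs of Il11 and Osmr limit their ratios in macrophage/monocyte-like cells, and the few cells limit all genes in classes of under 200 cells.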
